A study of Mus musculus with 8 samples.

Results

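Antigen presentation on major histocompatibility complex (MHC) class II was followed through 7 genes, namely Ciita, H2-Aa, H2-Ab1, H2-Eb1, Cd74, H2-DMa and H2-DMb1. They were taken by symbol, and all 7 were found among the 21080 genes of the deposited tables. RNA-seq had been performed on bone marrow-derived macrophages (BMDMs, cells grown out of mouse marrow with M-CSF) from Nudt21-cKO and WT mice on the C57BL/6 background. Nudt21-cKO mice carried floxed Nudt21 alleles (Nudt21 fl/fl) with LysM Cre, a Cre recombinase driven from the lysozyme 2 locus of myeloid cells that removes exons 2 to 3, and the WT mice were littermates that carried LysM Cre as well. BMDMs were left unstimulated (0 h) or were primed overnight with 50 ng/ml IFNγ and then given 50 ng/ml LPS for 4 h (4 h). There were 2 samples for each genotype at each time, 8 in all, and each pooled the cells of 2 mice. The WT samples are replicates 1 and 2 and the Nudt21-cKO samples replicates 3 and 4. The treatment label names IFNγ/LPS for the 0 h samples too, and these were taken as unstimulated from their titles. IFNγ and LPS were not given separately in these samples, and animal ages were not used here.

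MHC class II molecules are pairs of an alpha and a beta chain that carry peptides from ingested proteins to the cell surface, where CD4+ T cells read them. The invariant chain fills the peptide groove during assembly, and the DM heterodimer then exchanges its last fragment for peptide. In macrophages the genes are held low until IFNγ acts through JAK kinases and IRF1 on Ciita, the coactivator that does not bind DNA itself but docks on factors already seated on a shared promoter module, the X and Y boxes. Nudt21 encodes the 25 kDa subunit of cleavage factor Im, which binds UGUA in pre-mRNA and takes part in the choice of polyadenylation site.

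Letters of the promoter module are shown because Ciita acts through it. RefSeq promoter sequence (GRCm38.p6, 250 bases before to 50 bases after the annotated start) matched 4 of the 7 members, H2-Aa, H2-Eb1, H2-DMb1 and H2-DMa, with 2 annotated starts for H2-DMa. The letters GATTGG, the core of the Y box, were found on the strand of the gene in one window for each of these 4 genes. In H2-Aa, H2-Eb1 and H2-DMb1 the letters TGANG, which occur in the X box, stood 10 to 30 bases before GATTGG, as in the following runs of 30 bases with TGANG in capitals.
H2-Aa: agctggcaacttTGACGtcatcacaagaga
H2-Eb1: actagcaactgaTGATGctggactcctttg
H2-DMb1: cctagtaactgaTGATGctaggctgattca
The run of H2-Aa lies on the minus strand at chr17:34287880-34287909, with its capitals starting 74 bases before the annotated start and 20 bases between them and GATTGG. That of H2-Eb1 lies on the plus strand at chr17:34305772-34305801 (83 bases before the start, with 18 bases between), and that of H2-DMb1 on the plus strand at chr17:34153093-34153122 (86 bases before the start, with 19 bases between). In both H2-Eb1 and H2-DMb1 a TGANG match that overlaps the one shown begins 3 bases earlier. In H2-DMa only GATTGG was matched, 199 bases before one of its starts, in a run shown with GATTGG in capitals.
H2-DMa: gttctaggtctgGATTGGgaccaaagaatt
This run lies on the plus strand at chr17:34125307-34125336. Over 32851 promoter windows of the same length, 8.71% held GATTGG on the strand of the gene and 16.1% on either strand. The spaced pair was held on either strand by 1.61%. The matches describe these windows only, and no binding was measured.

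In GENCODE M21 (GRCm38), 5 of the 7 genes lie in the MHC class II region of chromosome 17, H2-DMa at chr17:34119541-34139101, H2-DMb1 at chr17:34153072-34160230, H2-Ab1 at chr17:34257689-34269419, H2-Aa on the minus strand at chr17:34282744-34287823 and H2-Eb1 at chr17:34305867-34316674. Ciita lies elsewhere, at chr16:10480059-10528418. Values are coverage, read here as the mean number of reads over each base of a gene, so that genes of unlike length may be compared. Coverage by itself does not put the samples on an equal scale, and values with the samples rescaled are given where calls or signs moved. Summed over all genes, coverage was 14950347 to 17954882 per sample. At 4 h the sums were 15552049 and 14950347 in WT and 17360205 and 17954882 in Nudt21-cKO. Nudt21 itself was 718 and 641 in WT and 158 and 172 in Nudt21-cKO at 0 h, and 547 and 575 against 142 and 115 at 4 h, so that the libraries matched their genotype labels.

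Stimulation raised every member in both genotypes, by 13.9-fold to 44.3-fold in WT and by 16.9-fold to 42.99-fold in Nudt21-cKO. Together the 7 genes made up 0.0905% to 0.123% of the summed coverage at 0 h and 2.66% to 3.45% at 4 h. All 7 were called higher (fold change above 1.5 with p under 0.05 in limma), where 11.9% of 16002 genes tested were called higher in WT and 13.7% of 16223 in Nudt21-cKO. In limma with Benjamini-Hochberg adjustment over all genes, the adjusted p of the 7 lay between 0.00196 and 0.00412 in WT and between 0.00107 and 0.0021 in Nudt21-cKO. The median gene moved the other way, by -1.27 on the log2 scale in WT and -1.05 in Nudt21-cKO, and the members' median was 4.72 and 4.74. The size of the rise therefore depends on the scale. With each sample centred on its median, the members rose 38.1-fold to 121-fold in WT and 39-fold to 99-fold in Nudt21-cKO. Folds of stimulation given for single genes are on the deposited scale. The 2 genotypes are described below gene by gene, beginning with the regulator. In bulk samples, fewer cells that express a gene and less RNA per cell cannot be told apart.

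**Figure D1:**
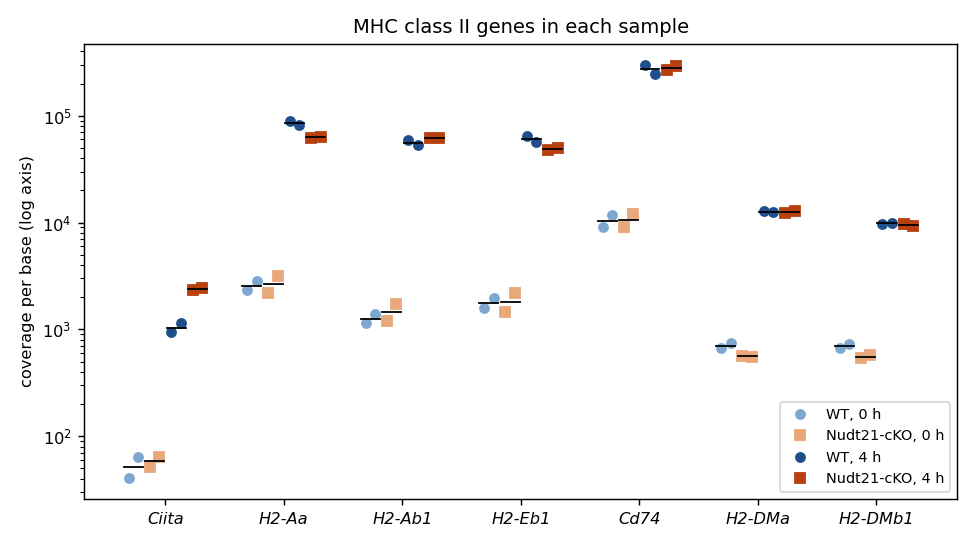
Coverage per base (log axis) of the 7 MHC class II genes in each of the 8 samples; points are samples, black bars the means of 2 samples. All 4 h values lie above all 0 h values of the same gene, and at 4 h the Nudt21-cKO points of Ciita lie above the WT points while those of H2-Aa and H2-Eb1 lie below them.

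Ciita, the coactivator on which the module depends, was the least abundant member in every sample and the only one called between the genotypes. Unstimulated, its coverage was 40.5 and 63.7 in WT and 52.1 and 64.4 in Nudt21-cKO, and the groups overlapped. After stimulation it was 941 and 1140 in WT and 2360 and 2465 in Nudt21-cKO. Both Nudt21-cKO samples were above both WT samples, and the gap between the groups was larger than the distance between replicates. The log2 fold change at 4 h was 1.22 (SE 0.15, 2.33-fold, limma adjusted p = 0.0567), so that Ciita was called by fold and unadjusted p but missed an adjusted p of 0.05. It stayed called with each sample left out in turn and with the samples centred on their medians, where the log2 fold change was 0.88. At 0 h the log2 fold change was 0.19 (SE 0.30, adjusted p = 0.744).

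Stimulation raised Ciita 20.3-fold in WT and 41.6-fold in Nudt21-cKO. The difference between these, which is the difference of the genotype effect between 0 h and 4 h, was 1.03 on the log2 scale (SE 0.36, limma adjusted p = 0.19) and was not called. None of the 7 members was called for this difference at an adjusted p under 0.05 (0 of 7), where 2.28% of 16284 genes were called in the higher direction and 0.761% in the lower. Ciita was the single member with an unadjusted p under 0.05 there.

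H2-Aa encodes the alpha chain of I-A, the class II molecule that C57BL/6 mice display. Unstimulated, its coverage was 2316 and 2829 in WT and 2183 and 3158 in Nudt21-cKO, which overlap. Stimulated, it was 89159 and 82424 in WT and 62283 and 63163 in Nudt21-cKO. Both Nudt21-cKO samples were thus below both WT samples at 4 h, opposite to Ciita, with a gap wider than the distance between replicates. The log2 fold change at 4 h was -0.45 (SE 0.11, 0.732 of WT, limma adjusted p = 0.0989), which had an unadjusted p under 0.05 but missed the fold of 1.5 and was not called. Because the median gene was 0.31 higher in Nudt21-cKO at 4 h, centring each sample on its median moved H2-Aa to -0.79, at which it was called lower (adjusted p = 0.116 in limma).

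H2-Ab1 encodes the beta chain that pairs with H2-Aa. Its coverage was 1140 and 1392 in WT and 1212 and 1726 in Nudt21-cKO at 0 h, and 58695 and 53019 against 61970 and 62391 at 4 h. At 4 h the groups did not overlap, with Nudt21-cKO higher by less than the distance between the WT replicates, and at 0 h they overlapped. The log2 fold change at 4 h was 0.16 (SE 0.11, adjusted p = 0.407), it was not called, and it turned to -0.18 after centring. Stimulation raised H2-Ab1 44.3-fold in WT and 42.99-fold in Nudt21-cKO.

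H2-Eb1 encodes the beta chain of I-E, which is left without a partner in C57BL/6 mice because their I-E alpha gene is not expressed. Its coverage was 1582 and 1950 in WT and 1460 and 2188 in Nudt21-cKO at 0 h, where the groups overlap. At 4 h it was 63948 and 56942 in WT and 48013 and 49890 in Nudt21-cKO, and both Nudt21-cKO samples were the lower ones. The log2 fold change at 4 h was -0.30 (SE 0.12, limma adjusted p = 0.197) and was not called. After centring it was -0.64 and was called lower (limma adjusted p = 0.163).

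The 3 chain genes kept nearly constant proportions within a group, and these proportions do not depend on how samples are scaled. The ratio was examined after the values had been seen and is given without a test. H2-Aa over H2-Ab1 was 2.03 in both WT samples at 0 h, 1.80 and 1.83 in Nudt21-cKO at 0 h, 1.52 and 1.55 in WT at 4 h and 1.005 and 1.012 in Nudt21-cKO at 4 h. The 4 groups did not overlap, and the 2 samples of a group were closer to each other than to any other group. H2-Eb1 over H2-Ab1 followed the same order, with means of 1.39 ± 0.0092, 1.24 ± 0.044, 1.08 ± 0.011 and 0.787 ± 0.018 (SD, n = 2 each). H2-Eb1 over H2-Aa varied less, from 0.681 ± 0.017 in Nudt21-cKO at 0 h to 0.78 ± 0.013 in Nudt21-cKO at 4 h (SD, n = 2). The alpha and beta chain genes of I-A therefore stood at about equal coverage in stimulated Nudt21-cKO BMDMs, and the alpha chain gene stood higher in the other 3 groups.

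**Figure D2:**
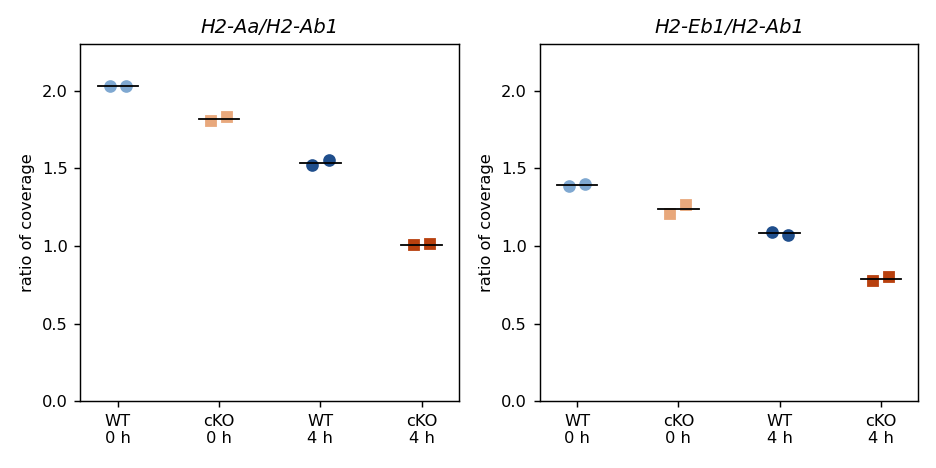
Ratio of coverage of H2-Aa to H2-Ab1 (left) and of H2-Eb1 to H2-Ab1 (right) in each sample, by genotype and time; points are samples, black bars the means of 2 samples, and both axes start at 0. In both panels the ratio steps down from WT at 0 h to Nudt21-cKO at 4 h, and no 2 groups overlap.

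Cd74, the invariant chain, was the most abundant member in every sample and ranked 1 to 3 among all genes at 4 h. Its coverage was 9070 and 11733 in WT and 9053 and 12130 in Nudt21-cKO at 0 h. At 4 h it was 300658 and 246095 in WT and 265901 and 293975 in Nudt21-cKO. The genotypes overlapped at both times, and the log2 fold change was 0.02 (SE 0.25) at 0 h and 0.04 (SE 0.16, adjusted p = 0.883) at 4 h. Cd74 rose 26.4-fold with stimulation in WT and 26.7-fold in Nudt21-cKO. Its coverage relative to H2-Aa was 3.18 ± 0.27 in WT and 4.46 ± 0.27 in Nudt21-cKO at 4 h (SD, n = 2), against 4.03 ± 0.16 and 3.99 ± 0.22 at 0 h.

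H2-DMa and H2-DMb1 encode the alpha and a beta chain of the peptide exchange factor DM. Unstimulated, H2-DMa was 669 and 746 in WT and 569 and 549 in Nudt21-cKO, and H2-DMb1 was 674 and 738 in WT and 541 and 575 in Nudt21-cKO. These were the members whose groups did not overlap at 0 h, with Nudt21-cKO lower for both. Their log2 fold changes at 0 h were -0.34 (SE 0.12) each, with limma adjusted p of 0.255 and 0.253, and neither was called.
At 4 h H2-DMa was 12779 and 12549 in WT and 12312 and 12966 in Nudt21-cKO, and H2-DMb1 was 9703 and 9936 against 9660 and 9238. The H2-DMa values overlapped and those of H2-DMb1 were separated by less than the distance between replicates, and the log2 fold changes were 0.00 and -0.06 (SE 0.10 each). H2-DMa over H2-DMb1 was 0.954 to 1.05 in the 4 samples at 0 h and 1.26 to 1.40 in the 4 samples at 4 h, with the genotypes overlapping at both times. The transcript of H2-DMb1 shares 95.7% identity over 1081 bases with H2-DMb2, the neighbouring gene for a second DM beta chain, so that reads may have been divided between the pair. H2-DMb2 was 82.1 and 84.1 in WT and 56.3 and 60.8 in Nudt21-cKO at 0 h, and 734 and 1037 against 556 and 582 at 4 h. No other member had a copy of at least 85% identity over 300 bases in another gene's transcripts.

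Between the genotypes, then, 1 of 7 members was called higher at 4 h and 0 of 7 lower, where 20.8% of 14950 genes were called higher and 4.17% lower. With each sample centred on its median, 1 of 7 was called higher and 2 of 7 lower, against 10.4% and 9.9% of genes. Groups that did not overlap at 4 h were found for 2 of 7 members with Nudt21-cKO higher, where 51.1% of genes had that order, and for 3 of 7 with Nudt21-cKO lower, where 14.9% had it. The members' median log2 fold change at 4 h was 0.00, and 6 of 7 lay below the 0.31 of the median gene, with Ciita as the exception. At 0 h, 0 of 7 members were called in limma, with 0 at an unadjusted p under 0.05, where 8.99% of 16251 genes were called higher and 5.61% lower. Of the members, 0 of 7 had non-overlapping groups with Nudt21-cKO higher (36.1% of genes) and 2 of 7 with Nudt21-cKO lower (20.9% of genes). With 2 samples per group an exact permutation test cannot go below p = 0.333, so the p-values rest on limma's spread shared across genes.

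**Figure D3:**
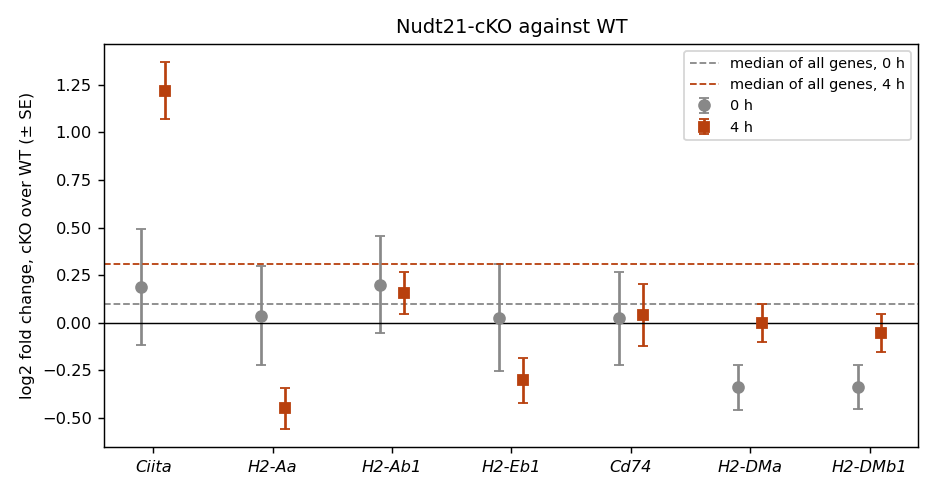
Log2 fold change of Nudt21-cKO over WT (± SE, limma, 2 samples per group) for the 7 members at 0 h (grey circles) and 4 h (orange squares), with dashed lines at the median of all genes. Ciita at 4 h stands at 1.22 and the other 6 members at 4 h lie below the dashed line at 0.31.

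**Figure D4:**
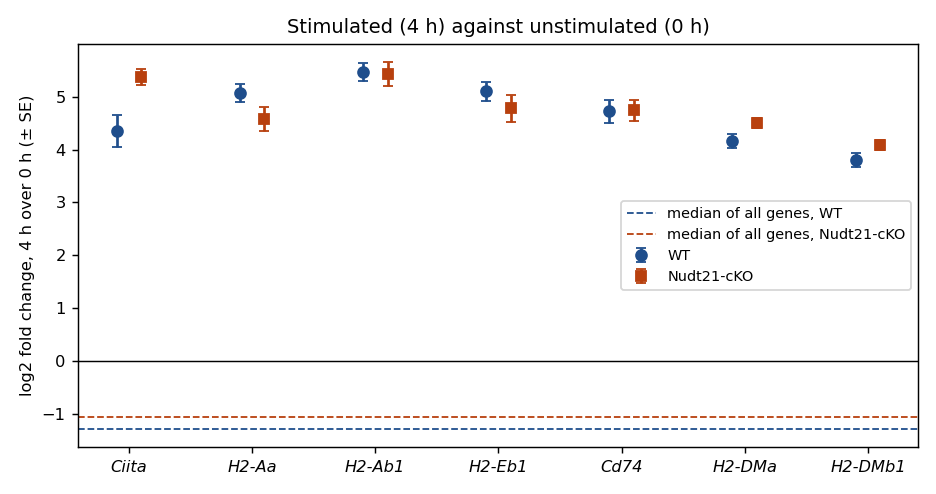
Log2 fold change of 4 h over 0 h (± SE, limma, 2 samples per group) for the 7 members in WT (blue circles) and Nudt21-cKO (orange squares), with dashed lines at the median of all genes. All members lie between 3.799 and 5.47 while the medians are below 0.

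At 0 h the samples of a group were unequal for the chain genes, Cd74 and Ciita. WT replicate 2 exceeded WT replicate 1, and Nudt21-cKO replicate 4 exceeded replicate 3, in all 5 of these genes, by 1.22-fold to 1.57-fold in WT and by 1.24-fold to 1.5-fold in Nudt21-cKO. H2-DMa and H2-DMb1 differed between replicates by at most 1.12-fold. The standard errors of the genotype log2 fold changes at 0 h were 0.25 to 0.30 for these 5 genes and 0.12 for the DM genes.

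Coverage of 3 targets was also divided by that of Ciita, again after the values had been seen and with no test. The ratio compares RNA levels only, and the action of Ciita on these genes was not measured. As Ciita is the divisor, its higher coverage in stimulated Nudt21-cKO BMDMs by itself lowers all 3 ratios. H2-Ab1 over Ciita was 28.1 and 21.9 in WT and 23.3 and 26.8 in Nudt21-cKO at 0 h. At 4 h it was 62.4 and 46.5 in WT, against 26.3 and 25.3 in Nudt21-cKO. H2-Aa over Ciita was 83.6 ± 16 in WT and 26.0 ± 0.55 in Nudt21-cKO at 4 h, and Cd74 over Ciita was 268 ± 73 and 116 ± 4.6 (SD, n = 2). Coverage of the targets per unit of Ciita was thus lower in both stimulated Nudt21-cKO samples than in both stimulated WT samples for these 3 genes.

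Ciita binds the promoter module through RFX (Rfx5, Rfxank and Rfxap), NF-Y (Nfya, Nfyb and Nfyc) and CREB (Creb1), and 2 of these 7 genes were called higher in stimulated Nudt21-cKO BMDMs and 0 lower, where 20.8% of all genes were called higher and 4.17% lower. Nfya, the NF-Y subunit that reads the CCAAT sequence of the Y box, was 602 and 598 in WT and 1370 and 1439 in Nudt21-cKO at 4 h. The groups were far apart relative to their replicates, with a log2 fold change of 1.23 (SE 0.10, limma adjusted p = 0.0466). At 0 h Nfya was 1633 and 1717 in WT and 1877 and 2065 in Nudt21-cKO, so that stimulation lowered it to 0.358 of its level in WT, where it was called, and to 0.713 in Nudt21-cKO, where it was not. Rfxank was 41.9 and 43.0 in WT and 62.2 and 72.5 in Nudt21-cKO at 4 h (log2 fold change 0.66, SE 0.13, adjusted p = 0.0824), and it was not called after centring (0.32), after scaling to equal summed coverage (0.45) or without WT replicate 1 (0.64), WT replicate 2 (0.68) or Nudt21-cKO replicate 4 (0.55). At 0 h, 0 of the 7 were called, and the list's median was 0.19 at 0 h and 0.45 at 4 h against 0.10 and 0.31 for all genes. With stimulation, 1 of the 7 was called higher in each genotype, Rfx5 (1.66-fold in WT and 1.99-fold in Nudt21-cKO), against 11.9% and 13.7% of all genes. Called lower were 4 of 7 in WT (Nfya, Nfyc, Rfxank and Rfxap) and 3 of 7 in Nudt21-cKO (Nfyc, Rfxank and Rfxap), where 55.1% and 53.2% of all genes were called lower.

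Of the 7 genes that carry the interferon signal to Ciita, 1 was called higher at 4 h and 0 lower, and 0 were called higher at 0 h and 1 lower. Over all genes, 20.8% were called higher and 4.17% lower at 4 h, and 8.99% and 5.61% at 0 h. Ifngr1, the ligand-binding chain of the IFNγ receptor, was 5355 and 4998 in WT and 3249 and 3309 in Nudt21-cKO at 0 h (log2 fold change -0.66, SE 0.11, limma adjusted p = 0.122). The groups did not overlap at 0 h or at 4 h, where it was 670 and 850 against 612 and 603 and was not called. Usf1, a factor that binds the IFNγ-responsive promoter of Ciita, was 175 and 245 in WT and 444 and 416 in Nudt21-cKO at 4 h (1.05, SE 0.22, adjusted p = 0.0869), and it was not called without Nudt21-cKO replicate 3 (1.005) or 4 (1.10). Irf1, which acts on the same promoter, was 14179 and 14391 in WT and 19303 and 21570 in Nudt21-cKO at 4 h (0.51, SE 0.12, limma adjusted p = 0.0934) and fell short of the fold of 1.5. With stimulation, 3 of the 7 were called higher in each genotype, Irf1 and Jak2 among them, and 3 lower (Ifngr1, Jak1 and Usf1). Over all genes, 11.9% in WT and 13.7% in Nudt21-cKO were called higher, and 55.1% and 53.2% lower. Irf1 rose by 18.1-fold in WT and 28.2-fold in Nudt21-cKO.

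Among the 4 other class II genes with rows in the tables, 2 were called higher in stimulated Nudt21-cKO BMDMs and 0 lower, against 20.8% and 4.17% of all genes, both of them at low coverage. H2-Oa, the alpha chain of DO, which restrains DM, was 143 and 75.7 in WT and 242 and 338 in Nudt21-cKO at 4 h (log2 fold change 1.46, SE 0.43, limma adjusted p = 0.129). It was not called after centring or without WT replicate 2 (1.005), Nudt21-cKO replicate 3 (1.70) or replicate 4 (1.22). H2-Eb2, a second I-E type beta chain gene, was 2.70 and 1.05 in WT and 17.7 and 10.7 in Nudt21-cKO (2.95, SE 0.60, adjusted p = 0.0849). It was not called without Nudt21-cKO replicate 3 (2.58) or 4 (3.31), and the value was 2.31 to 3.59 over the 4 samples left out in turn. H2-Ob was 56.5 and 69.9 against 48.6 and 63.1, with overlapping groups. At 0 h, 0 of the 4 were called.

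Of 9 genes of antigen and invariant chain processing, which are proteases, the thiol reductase Ifi30 and the protease inhibitor Cst3, 2 were called higher and 1 lower at 4 h, against 20.8% and 4.17% of all genes, and 0 at 0 h. Ctsz, a lysosomal carboxypeptidase, was 13040 and 13717 in WT and 28455 and 29937 in Nudt21-cKO (log2 fold change 1.13, SE 0.10, limma adjusted p = 0.0484). Ctsb, a lysosomal cysteine protease, was 88798 and 103637 against 155582 and 164379 (0.74, SE 0.13, adjusted p = 0.0766), and it missed the fold of 1.5 after centring (0.40) and after scaling to equal summed coverage (0.53), and was not called without Nudt21-cKO replicate 3 (0.78) or 4 (0.6976). Lgmn, the asparagine endopeptidase that makes early cuts in the invariant chain, was 8102 and 9827 against 5125 and 4749 (-0.85, SE 0.15, adjusted p = 0.0756), and it was not called without Nudt21-cKO replicate 3 (-0.91) or 4 (-0.7999). Ctss, the protease that completes invariant chain removal, was 93029 and 96750 against 100308 and 99522 (0.07, SE 0.10) and was not called. The list's median was 0.16 at 4 h against 0.31 for all genes.

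Of 4 genes tied to surface turnover of class II, 0 were called higher and 1 lower at 0 h, against 8.99% and 5.61% of all genes, and 1 higher and 0 lower at 4 h, against 20.8% and 4.17%. March1, the ligase that ubiquitinates class II beta chains, was 741 and 879 in WT and 524 and 508 in Nudt21-cKO at 0 h (log2 fold change -0.65, SE 0.14, limma adjusted p = 0.162), and at 4 h its groups overlapped. It was not called without WT replicate 2 (-0.52), Nudt21-cKO replicate 3 (-0.67) or replicate 4 (-0.62). March8, a related ligase, was 162 and 177 in WT and 233 and 281 in Nudt21-cKO at 4 h (0.60, SE 0.15, adjusted p = 0.11). It was not called after centring (0.26), after scaling to equal summed coverage (0.38) or without WT replicate 1 (0.53), WT replicate 2 (0.66) or Nudt21-cKO replicate 4 (0.46). Il10, a cytokine that lowers surface class II, was 2071 and 1797 in WT and 2688 and 3082 in Nudt21-cKO at 4 h (0.58, SE 0.15, adjusted p = 0.11), which missed the fold of 1.5.

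Nudt21 acts through UGUA, so the 3'UTRs of the members were searched for TGTA in the transcript with the longest coding sequence. H2-Ab1 held 6 matches in 311 bases, or 19.3 per kilobase, above 99.3% of 19473 genes, whose median was 5.1 per kilobase. Its pairing partner H2-Aa held 0 in 300 bases, and H2-Eb1 (307 bases), H2-DMa (280 bases) and H2-DMb1 (291 bases) held 0 as well, while Cd74 held 1 in 484 bases. Ciita held 2 in 684 bases, or 2.92 per kilobase, and 11 in the 2676 bases of its longest annotated 3'UTR, or 4.11 per kilobase. The runs of 30 bases with the most matches are shown for H2-Ab1, the member with the highest density, and for the longest annotated 3'UTR of Ciita, the member called at 4 h, with TGTA in capitals. The Ciita run lies beyond the end of the 3'UTR of 684 bases.
H2-Ab1: ttcgatcTGTAgtaaaccaaTGTAtgctta
Ciita: TGTAcctgtcaggagaaaggcagatcTGTA
The H2-Ab1 run lies at chr17:34269342-34269371 and the Ciita run at chr16:10527473-10527502, both on the plus strand. The letters are a description, binding was not measured, and coverage averaged over a whole gene does not tell 3'UTR forms apart.

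Over the 8 samples, the genes most like Ciita by the root mean square difference of centred log2 coverage, among the 12024 genes whose coverage averaged 10 or more, were Src (0.14), Hdc (0.25), Gfi1 (0.28), Pakap (0.29) and Gm12185 (0.33). Src, a tyrosine kinase, had means of 81.6 and 73.6 in WT and Nudt21-cKO at 0 h and of 1572 and 3753 at 4 h. The members themselves were farther from Ciita, at 0.46 (Cd74) to 0.69 (H2-DMb1). With the members left out, the genes most like the mean of H2-Aa, H2-Ab1 and H2-Eb1 were Igtp (0.12), Adora2b (0.22), Cd86 (0.23), Icam1 (0.24) and BC147527 (0.24), and the member Cd74 stood at 0.20. Igtp, an interferon-induced GTPase, had means of 180 and 186 at 0 h and of 6728 and 6474 at 4 h, and Cd86, a costimulatory ligand for T cells, of 258 and 216 at 0 h and of 8446 and 5620 at 4 h in WT and Nudt21-cKO.

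Other cell types were looked for by their markers. All 7 macrophage markers were detected in every sample, with summed coverage of 118200 to 126900 in WT and 121900 to 130700 in Nudt21-cKO at 0 h, and of 50580 to 55390 and 61850 to 64860, without overlap, at 4 h. At 0 h, 1 of the 7 was called higher in Nudt21-cKO (Cd68, log2 fold change 0.69) and 2 lower (Adgre1, -0.66, and Fcgr1, -0.89), against 8.99% and 5.61% of all genes. At 4 h, 2 of the 7 were called higher (Cd68, 1.07, and Lyz2, 0.82) and 0 lower, against 20.8% and 4.17%, and their part in the class II values was not tested. Lyz2 is also the locus that drives Cre in both genotypes, and an effect of the Cre allele on its coverage was not tested. Of 7 B cell markers, Ms4a1 and Pax5 were at 0.41 or less in every sample, and the list's sum was 128 to 144 in WT and 71.7 to 75.9 in Nudt21-cKO at 0 h, most of it from Cd79b, and 3.43 to 11.4 at 4 h. Of the 4 B cell markers tested at 0 h, 1 was called lower in Nudt21-cKO, against 5.61% of all genes, namely Cd79b (142 and 123 against 69.1 and 66.3, log2 fold change -0.96). The other 3, at coverage under 5, were not called and had log2 fold changes above 0 (Cd79a 0.46, Cr2 1.02 and Ebf1 1.16). The part of such cells in the class II values was not tested. Of 8 dendritic cell markers, Flt3 stayed at 3.54 or less, and Itgax, which macrophages express too, carried most of the sum of 2914 to 6123 at 0 h. With stimulation, 4 of the 8 were called higher in each genotype, Clec9a, Xcr1 and Zbtb46 among them, and 1 lower (Cd209a). Over all genes, 11.9% in WT and 13.7% in Nudt21-cKO were called higher, and 55.1% and 53.2% lower. Clec9a and Xcr1 mark a dendritic cell subset. Clec9a went from 3.32 and 4.85 to 1200 and 1885 in WT and from 2.90 and 7.71 to 1048 and 1005 in Nudt21-cKO, and Xcr1 from 0.00024 or less in every sample at 0 h to 17.5 and 52.4 in WT and 4.64 and 2.32 in Nudt21-cKO. Zbtb46, a dendritic cell transcription factor, was 6.59 and 7.08 in WT and 16.6 and 23.9 in Nudt21-cKO at 4 h. Cd209a was 20.3 and 24.9 in WT and 26.2 and 39.3 in Nudt21-cKO at 0 h, and was listed at 0 in all 4 h samples. Between the genotypes at 4 h, 1 of the 7 dendritic cell markers tested was called higher (Zbtb46) and 1 lower (Xcr1), against 20.8% and 4.17% of all genes, and the part of such cells in the class II values was not tested. Of 6 T cell markers, Cd4 alone exceeded 10, at 140 to 197 at 0 h and 13.4 to 23.5 at 4 h. The 6 neutrophil markers, led by S100a8 and S100a9, summed to 18970 to 19970 in WT and 21720 to 28850 in Nudt21-cKO at 0 h, without overlap, and to 15290 to 18350 and 17720 to 20560 at 4 h. Of these 6, 0 were called at 0 h, against 8.99% of all genes higher and 5.61% lower, and 1 was called higher at 4 h, against 20.8% (Camp, log2 fold change 0.66), and their part in the class II values was not tested.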

How the data were processed

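Members and gene lists were chosen with earlier results of these data known. RNA-seq of 8 BMDM samples was used, 2 per genotype and time. Per the labels, the authors aligned reads with HISAT2 2.2.1 to mm10 and quantified genes with StringTie 2.1.7. The authors deposited coverage (signal, mean reads per base) for each gene and sample, in separate tables for 0 h and 4 h. The unit is not named there and was inferred from the values. Per the labels, more than 250000000 reads were sequenced per sample, and as coverage gives no read count per gene, counting intervals were not given. Unused columns of sample values numbered 0. The tables also hold the authors' fold changes, p-values, FDR and classes, which were not used.

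Groups were compared in limma 3.58.1 (R 4.3.3) on log2-transformed coverage (pseudocount 0.1), restricted to genes averaging 0.5 or more across those samples, on the deposited scale, so fold changes of low genes are understated. Both tables were read as 1 scale for comparisons between times. Calls needed a change over 1.5-fold and p under 0.05, as in the study's methods, and the difference between times at an adjusted p under 0.05 as an interaction over all 8 samples. Named genes were the members, Nudt21, the pathway lists and, for Ciita and for the mean of the 3 chain genes, the 5 nearest profiles. List genes given singly were picked with their values known. Nothing in the labels says that same-numbered samples share mice across times. Deviations from group means of same-numbered samples correlated at 0.02 (WT and Nudt21-cKO), and no pairing was assumed. Alternatives covered the pseudocount (1), the filter, centring, equal summed coverage, left-out samples, all samples in one fit and a replicate block. The comparison was tested on simulated data with 200 changed genes. Promoters came from RefSeq (GRCm38.p6), positions and 3'UTRs from GENCODE M21, and copies from blastn 2.17.0. RefSeq promoter sequence of H2-Ab1, Cd74 and Ciita was not used here. Single values of 2 listed genes are not reported here.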

Additional observations from a re-analysis of the deposited data

Results flagged for a closer look

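Nfya, the NF-Y subunit of the class II promoter complex, was set apart because its genotype difference was larger at 4 h than at 0 h. The difference between the 2 genotype effects was 0.99 on the log2 scale (SE 0.14, adjusted p = 0.0372 in limma over 16284 genes). The adjusted p ranged from 0.0375 to 0.168 over 13 alternatives, 10 of which left it above 0.05, among them each of the 8 that left out 1 sample. The value itself ranged from 0.73 to 1.06 over these alternatives. None of the 7 members was set apart in this way, and groups of 2 samples are too small for an outlier to be tested.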

How the results depend on the processing

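All 7 members stayed called higher with stimulation in both genotypes, and Ciita stayed called higher at 4 h, under every alternative run. Centring each sample on its median moved the number of members called lower at 4 h from 0 to 2 (H2-Aa and H2-Eb1), and scaling to equal summed coverage to 1 (H2-Aa, -0.66). Uncalled members changed sign with these 2 scalings. At 0 h they gave -0.055 and -0.086 for H2-Aa, -0.067 and -0.097 for H2-Eb1 and -0.070 and -0.0999 for Cd74. At 4 h they gave -0.18 and -0.055 for H2-Ab1 and -0.30 and -0.17 for Cd74, and for the difference between times -0.25 and -0.072 for Cd74.

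Leaving out 1 sample in turn gave ranges at 0 h of -0.23 to 0.30 for H2-Aa, -0.056 to 0.45 for H2-Ab1, -0.27 to 0.32 for H2-Eb1, -0.19 to 0.23 for Cd74 and -0.14 to 0.51 for Ciita. The sign turned without WT replicate 1 or Nudt21-cKO replicate 4. At 4 h the ranges were -0.041 to 0.034 for H2-DMa and -0.10 to 0.18 for Cd74, with 2243 to 4577 genes called against 3736. The lowest count was without Nudt21-cKO replicate 4. For the difference between times the ranges were -0.30 to 0.21 for H2-Ab1 and -0.19 to 0.23 for Cd74, with 184 to 692 genes called against 496, the lowest again without Nudt21-cKO replicate 4 of 4 h. With the replicate number as a block, 31 genes were called for the difference between times against 496, and no call of a member changed. The cause was not tested. With 1 sample left in a group, that sample is assumed to vary like the others. Replicate spread over 2 samples per group limits what could be seen at 0 h.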
